A study of Homo sapiens with 12 samples.

Results

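The genes described are the cadherins and integrins, receptors that attach cells to each other and to their matrix. They were chosen by the gene symbol of the array's annotation, as all numbered CDH genes except CDH2 and all ITGA and ITGB genes. This gave 45 genes of the 13881 named on the array, read by 50 probes of 27561. They comprised 21 cadherins, 16 integrin alpha chains and 8 integrin beta chains. Where a gene had more than 1 probe, the brightest by its mean over the 12 arrays stands for it.

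Cadherins are calcium-dependent receptors whose outer repeats bind cadherins of the neighbouring cell and whose tails, in the classical types, bind catenins and through them actin. Integrins are pairs of an alpha and a beta chain. The pair decides the ligand, such as collagen, laminin, fibronectin or vitronectin, and the tails bind talin and kindlins. In liver, E-cadherin CDH1 holds hepatocytes together, while beta chain ITGB1 is shared by most of their matrix receptors.

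Total RNA of cells labelled HepG2, a human hepatocellular carcinoma line, was hybridised to one-colour Cy5 oligonucleotide arrays. The groups were cells given 25 µM glycyrrhizin (a triterpenoid saponin of liquorice), 25 µM silymarin (flavonolignans of milk thistle) or 25 µM ursodeoxycholic acid (a bile acid), and mock-treated controls, with 3 arrays each. All cells grew in DMEM with fetal bovine serum, and the labels state neither treatment time nor separate cultures within a group. The p-values below therefore cover the spread between arrays, which may be technical.

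All values are log2 intensities, on which a step of 1 is a doubling. Array medians lay between 85.7 and 86.6 on the linear scale, and the arrays follow nearly 1 distribution. Across genes, the median correlation was 0.945 between arrays sharing a group and 0.946 between arrays of unlike groups. Ursodeoxycholic acid replicate 1 (median r with the other arrays of 0.923) and silymarin replicate 2 (0.925) stood lowest. Differences come from limma over all 13881 genes, with Benjamini-Hochberg adjustment and a threshold of 0.05. The table has no detection call, and whether a dim probe read above background cannot be told.

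The labelled cell type was checked against marker genes. The 13 measured hepatocyte and hepatoma markers had a median level of 6.8, beside 6.7 for the median gene, with 7 above the median gene. They ran from APOA2 at 5.17 to TTR at 7.77 and APOB at 8.89, with alpha-fetoprotein AFP at 6.89 and APOA1 at 7.66. The 13 mesenchymal markers had a median of 6.16, with 6 above the median gene, and ran from ZEB1 at 3.89 to TWIST1 at 13.32 and VIM at 15.53. The 14 neuroblast and sympathetic neuron markers had a median of 8.77, with 11 above the median gene, and ran from ELAVL4 at 3.28 to STMN2 at 11.08 and TH at 12.49. The 12 epithelial markers had a median of 5.51, the 10 leukocyte markers 5.41, the 10 endothelial markers 6.79 and the 4 platelet markers 8.04. The mean over the hepatocyte markers ran from 6.69 to 6.87 on glycyrrhizin arrays, 6.61 to 6.97 on silymarin arrays, 6.69 to 7.04 on ursodeoxycholic acid arrays and 6.81 to 6.93 on mock arrays, so it overlapped in all groups. The markers give no bright hepatoma profile, and the identity of the cells was not tested. In such bulk RNA, fewer cells of a type and less RNA per cell cannot be told apart.

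Signal differed widely among the 45 genes, with 26 probes above the median gene and 19 below it. Probes bind with different strength, so these levels describe each probe and do not order the transcripts. The 4 type I cadherins, the classical kind of epithelia and muscle, had a median of 7.75. The 13 type II cadherins had a median of 6.98 and the 4 others 5.03. The 8 alpha chains with an I-domain, which mostly bind collagen or serve leukocytes, had a median of 7.13, against 6.16 for the 8 other alpha chains and 7.81 for the 8 beta chains.

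**Figure D1:**
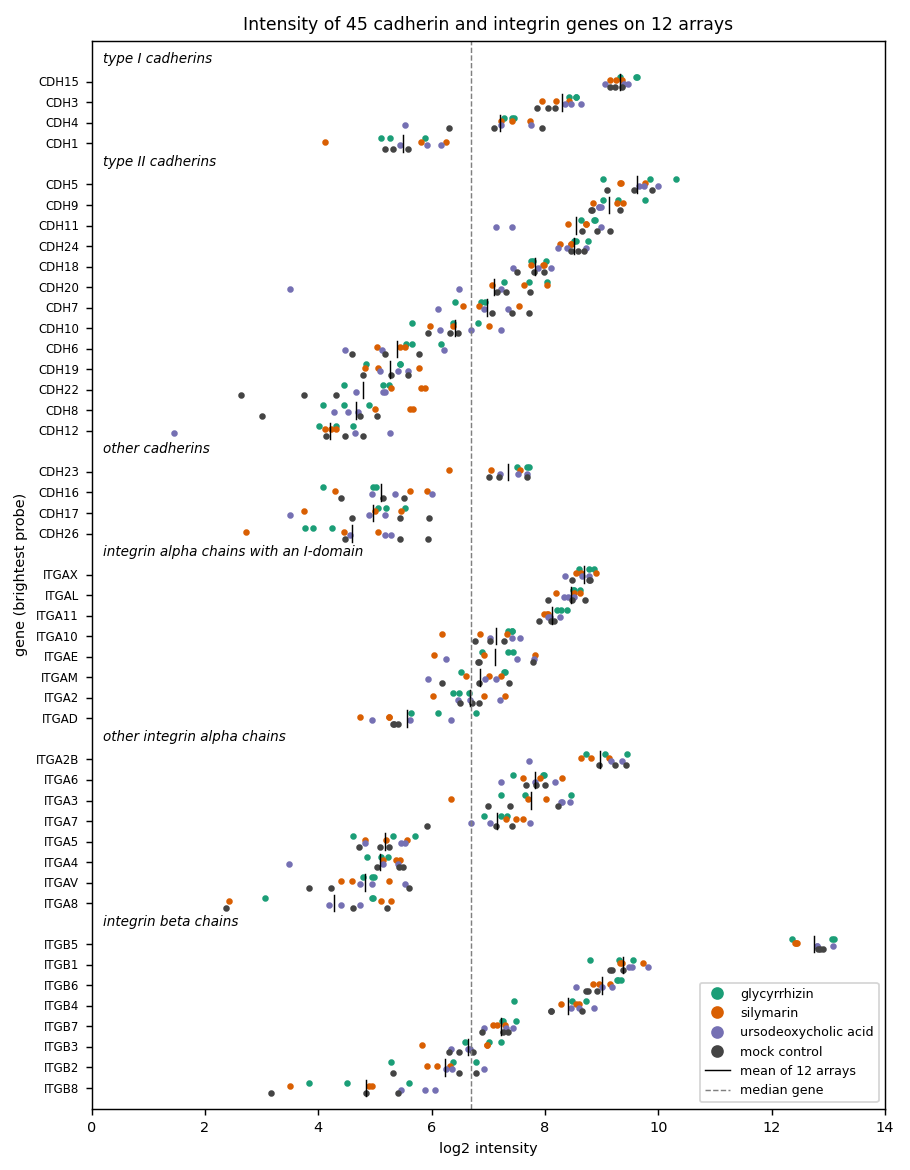
Log2 intensity (x axis) of each of the 45 cadherin and integrin genes (rows, by family) on 12 arrays. Points are arrays coloured by group, black ticks are means of 12 arrays and the dashed line is the median gene at 6.7; ITGB5 stands apart at a mean of 12.75, and the widest scatter is on dim probes such as CDH12 and ITGA8 and on CDH20, with 1 low ursodeoxycholic acid array.

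Among the junctional cadherins the probe of CDH1, E-cadherin, was dim on all arrays. It read 5.1, 5.26 and 5.89 with glycyrrhizin, 4.11, 5.82 and 6.26 with silymarin, 6.16, 5.45 and 5.92 with ursodeoxycholic acid and 5.18, 5.58 and 5.32 in mock controls. The groups overlapped in every comparison with mock control. CDH3, P-cadherin of placenta and basal epithelium and the direct neighbour of CDH1 in the RefSeq gene order, averaged 8.3. CDH17, the liver-intestine cadherin, averaged 4.96 (3.51 to 5.95 over the 12 arrays). CDH5, the cadherin of endothelial junctions, averaged 9.63 and the muscle cadherin CDH15 averaged 9.33, although the endothelial markers as a list lay near the median gene.

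Among the integrins the signal of ITGB5, a partner of alpha chain ITGAV in vitronectin receptors, averaged 12.75, higher than that of 97.5% of genes. ITGB1, the beta chain of most laminin, collagen and fibronectin receptors, averaged 9.38. Some of their alpha partners were read by dim probes: ITGAV averaged 4.82 and the fibronectin receptor chain ITGA5 averaged 5.18. The laminin receptor chains ITGA6 and ITGA3 averaged 7.83 and 7.75, and ITGB4, which pairs with ITGA6 in hemidesmosomes, 8.41. The collagen receptor chain ITGA2 averaged 6.68.

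The probes of chains known from blood cells lay on both sides of the median gene. The leukocyte chains ITGAX and ITGAL averaged 8.68 and 8.45, while ITGAM averaged 6.86 and their shared partner ITGB2 averaged 6.24. The platelet chain ITGA2B averaged 8.97, and its partner ITGB3 averaged 6.65. Of the 10 leukocyte markers 4 lay above the median gene, CD3D at 11.35, CD14 at 9.92, CORO1A at 9.22 and CD79A at 8.96, and 6 below it, among them the pan-leukocyte marker PTPRC at 5.49. Whether these probes read their named transcripts was not tested. The lowest means belonged to the brain cadherin CDH12 (4.2), ITGA8 (4.27), CDH26 (4.59), CDH8 (4.67) and CDH22 (4.79), and the highest to ITGB5, CDH5, ITGB1, CDH15 and CDH9 (9.12).

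The precision of a difference followed this brightness. The 95% interval of a difference between 2 groups had a median half-width of 0.95 for the 19 dimmer genes and of 0.63 for the 26 brighter ones, corresponding to 1.93-fold and 1.55-fold. The narrowest was 0.36 and the widest 1.95. Over all genes below and above the median gene the medians were 0.94 and 0.56. With 3 arrays a group, a difference smaller than its own half-width had an interval that included 0. The widths are not adjusted for the number of genes tested, so a larger difference could still fail the threshold. CDH22 with silymarin differed by 2.1 (95% interval 1.22 to 2.98) and did not pass (limma adjusted p = 0.357).

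**Figure D2:**
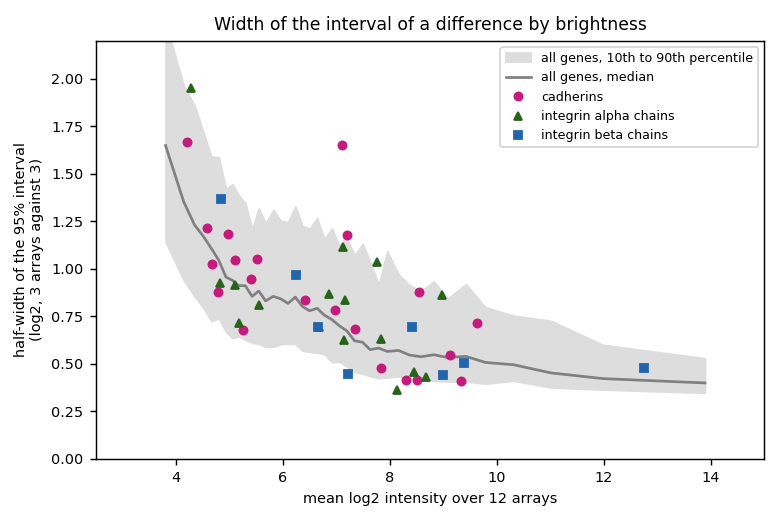
Half-width of the 95% interval of a difference between 2 groups (y axis, log2) against mean log2 intensity over 12 arrays (x axis). Symbols are the 45 cadherin and integrin genes, the line and band are the median and the 10th to 90th percentile of all genes; the intervals narrow with brightness from a median of 0.95 to 0.63 between the 19 dimmer and the 26 brighter genes, and CDH20 lies above the band.

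Glycyrrhizin against mock control. None of the 45 cadherin and integrin genes passed the threshold, where 0.0072% of all genes did (1 gene, MIEN1, of neither family). At an unadjusted p under 0.05 stood 5 genes, which were CDH22, CDH3, ITGAD and ITGB6 on the higher side and CDH26 on the lower. That is 11.1% of the 45, beside 5.71% of all genes (2.46% higher and 3.24% lower). The median difference was 0.16 over the 45 genes and 0.02 over all genes, and 31 of the 45 lay above 0, where 52.5% of all genes did. Among the families, the 4 type I cadherins and 7 of the 8 alpha chains with an I-domain were above mock, by medians of 0.27 and 0.19. The type II cadherins had a median of 0.08, the other cadherins −0.2, the other alpha chains 0.22 and the beta chains 0.08. Of the 45 genes 39 differed from mock by less than 0.5, as did 11139 of all 13881 genes.

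CDH3 read 8.43, 8.55 and 8.55 with glycyrrhizin, against 7.85, 8.17 and 8.06 in mock controls. All 3 glycyrrhizin arrays lay above all mock arrays, by a difference of 0.48 (SE 0.19, 95% interval 0.07 to 0.9), and limma's adjusted p was 0.77. ITGB6, the epithelial beta chain that pairs with ITGAV and activates latent TGF-beta, read 9.28, 9.27 and 9.34 with glycyrrhizin, against 8.72, 8.92 and 8.75 in mock controls. It differed by 0.5 (SE 0.2) without overlap of the groups and did not pass (limma adjusted p = 0.782). Both probes were brighter than that of the median gene.

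The other 3 genes were read by dim probes. CDH22, a type II cadherin first known from pituitary and brain, read 5.14, 4.46 and 5.24 with glycyrrhizin, against 2.64, 3.74 and 4.31 in mock controls. The difference was 1.38 (SE 0.4, limma adjusted p = 0.621), or 0.37 when 50 was added to each intensity before the log. ITGAD, a leukocyte chain that pairs with ITGB2, read 6.78, 5.64 and 6.11 with glycyrrhizin and 5.4, 5.34 and 5.32 in mock controls, a difference of 0.82 (SE 0.37, limma adjusted p = 0.858). The groups did not overlap, the 95% interval ran from 0.01 to 1.63, and the difference was 0.52 without glycyrrhizin replicate 1 and 0.45 with 50 added before the log. CDH26, a cadherin of inflamed gut epithelium, read 3.77, 4.24 and 3.91 with glycyrrhizin, against 4.47, 5.93 and 5.45 in mock controls. That is a difference of −1.31 (SE 0.55, limma adjusted p = 0.815), with all 3 glycyrrhizin arrays below all mock arrays, or −0.46 with 50 added before the log.

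The further named differences with glycyrrhizin had an unadjusted p above 0.05. The kidney cadherin CDH6 differed by 0.61, or 0.32 without mock control replicate 1, and CDH7 by −0.65. CDH16 differed by −0.33, or −0.03 without glycyrrhizin replicate 1. The VCAM1-binding alpha chain ITGA4 differed by −0.25, or −0.15 without glycyrrhizin replicate 3, and ITGA2 by −0.18, or −0.1 without mock control replicate 2. Groups without overlap were also seen for CDH7, for ITGA10 (0.36) and for ITGA11 (0.25), 2 collagen receptor chains. In all, 8 of the 45 genes had groups that did not overlap, 17.8% beside 12.7% of all genes. The beta chains apart from ITGB6 and ITGB3 (0.44) stayed within 0.2 of mock, ITGB1 at −0.02 (95% interval −0.52 to 0.49) and ITGB5 at −0.01 (−0.49 to 0.47). E-cadherin CDH1 differed by 0.06 (95% interval −0.99 to 1.11).

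**Figure D3:**
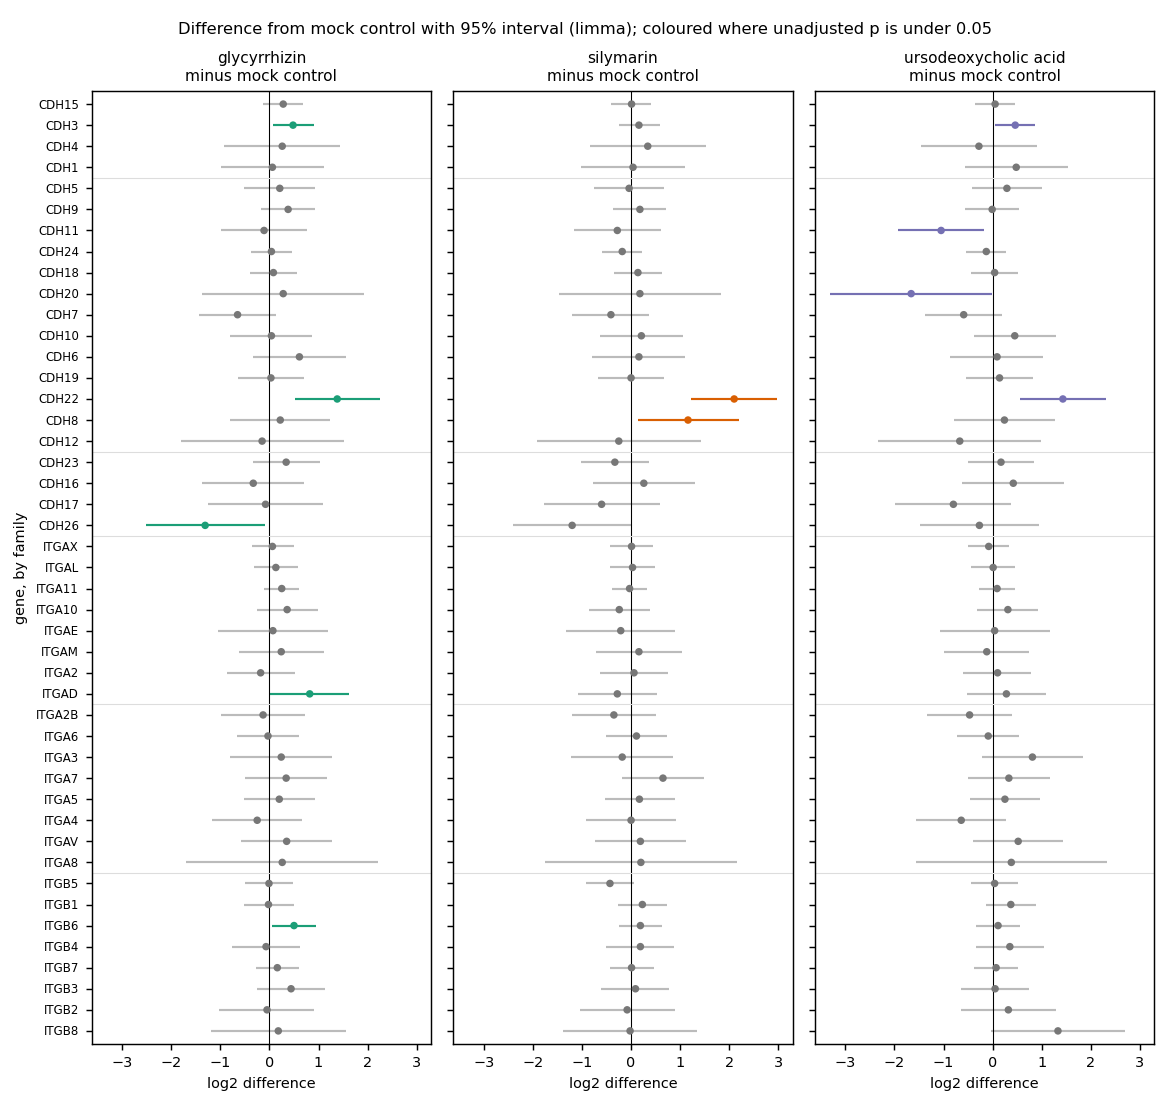
Difference from mock control (x axis, log2) with its 95% interval from limma for each of the 45 genes (rows, by family), one panel an agent. Points are differences of 3 against 3 arrays, coloured where the unadjusted p is under 0.05; CDH22 lies right of 0 in all 3 panels (1.38, 2.1 and 1.43), and all panels share the same 3 mock arrays.

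Silymarin against mock control. Again no cadherin or integrin gene passed, and 0% of all genes did. At an unadjusted p under 0.05 stood 2 genes, CDH22 and CDH8, both higher, which is 4.44% of the 45 beside 5.24% of all genes (3.05% higher). The median difference was 0.03 and 27 of the 45 genes lay above 0, beside 52.3% of all genes. Groups without overlap were seen for 3 genes, 6.67% beside 10.8% of all genes. Both shares rest on few genes, 2 and 3 of the 45, and no difference from the array as a whole is read from them. Of the 45 genes 40 differed from mock by less than 0.5, as did 10973 of all 13881 genes. The family medians ran from −0.46 for the 4 other cadherins to 0.14.

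CDH22 read 5.28, 5.82 and 5.89 with silymarin, against 2.64, 3.74 and 4.31 in mock controls. Its difference of 2.1 (SE 0.4, 95% interval 1.22 to 2.98) is 4.29-fold on this scale and carried the lowest p of any of the 45 genes (unadjusted p = 0.000277 in limma, adjusted p = 0.357). On the linear scale its mean intensity was 51.6 with silymarin and 13.1 in mock controls, both under the array medians. With 50 added before the log the difference was 0.69. CDH8, a type II cadherin of the brain, read 5, 5.67 and 5.61 with silymarin and 5.04, 4.73 and 3.01 in mock controls, a difference of 1.16 (SE 0.46, limma adjusted p = 0.931). One silymarin array lay among the mock arrays, and the difference was 0.54 without mock control replicate 3 and 0.38 with 50 added before the log.

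The further named differences with silymarin had an unadjusted p above 0.05. CDH26 read 4.46, 2.72 and 5.06 with silymarin and differed by −1.2 (SE 0.55), or by −0.52 without silymarin replicate 2. ITGA7, a laminin receptor chain of muscle, differed by 0.65, or 0.2 without mock control replicate 3, and CDH4 by 0.34, or −0.07 without that array. CDH17 differed by −0.6, or −0.1 without silymarin replicate 2. CDH7 differed by −0.41, or −0.2 without silymarin replicate 3, ITGA2B by −0.35, and CDH16 by 0.26, or −0.06 without silymarin replicate 1.

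ITGB5, with the brightest of the probes, read 12.45, 12.41 and 12.42 with silymarin, against 12.81, 12.9 and 12.85 in mock controls. The groups did not overlap, and the difference of −0.43 (SE 0.22, 95% interval −0.91 to 0.05) did not pass (limma adjusted p = 0.932). The spread within each of these groups was small, at an SD of 0.02 with silymarin and 0.04 in mock controls. The SE reflects all 4 groups, among them glycyrrhizin with an SD of 0.42. The second ITGB5 probe, at a mean of 9.18, differed by 0.13 (SE 0.19) in the other direction. The alpha chains ITGAL, ITGAX and ITGA4 lay within 0.05 of mock.

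**Figure D4:**
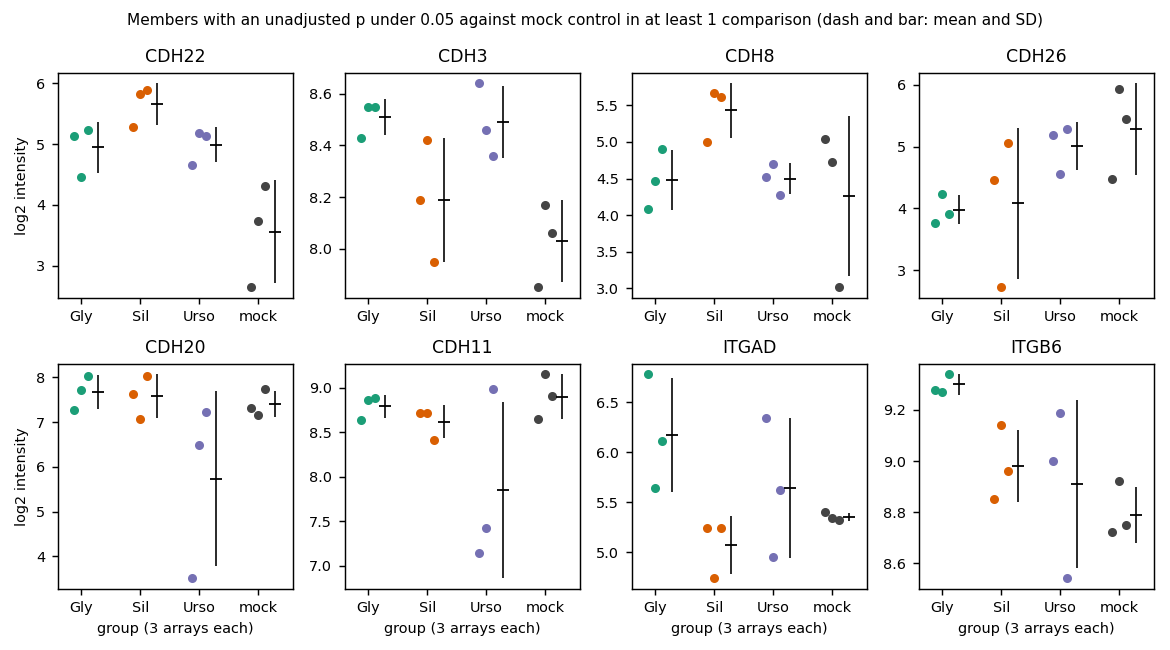
Log2 intensity (y axis, own scale in each panel) on each of the 3 arrays of a group (x axis) for the 8 genes with an unadjusted p under 0.05 against mock control for at least 1 agent; dashes and bars are means and SD. CDH22 lies above all mock arrays on 9 of 9 treated arrays, while the ursodeoxycholic acid arrays of CDH20 and CDH11 spread widely, with an SD of 1.96 and 0.99.

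Ursodeoxycholic acid against mock control. No cadherin or integrin gene passed on all arrays, and 0% of all genes did. At an unadjusted p under 0.05 stood CDH22 and CDH3 on the higher side and CDH11 and CDH20 on the lower, 8.89% of the 45 genes beside 5.55% of all genes (2.81% higher and 2.74% lower). The median difference was 0.09, with 31 of 45 genes above 0 beside 52.3% of all genes. Groups without overlap were seen for 5 genes, all higher, 11.1% beside 9.5% of all genes.

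CDH3 read 8.64, 8.46 and 8.36 with ursodeoxycholic acid, against 7.85, 8.17 and 8.06 in mock controls, a difference of 0.46 (SE 0.19, limma adjusted p = 0.892) without overlap of the groups. CDH22 read 4.66, 5.18 and 5.14 with ursodeoxycholic acid, against 2.64, 3.74 and 4.31 in mock controls. It differed by 1.43 (SE 0.4, limma adjusted p = 0.633). These 2 genes had a low p with glycyrrhizin as well, and both comparisons share the same mock arrays.

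CDH11, the cadherin of osteoblasts and mesenchyme, read 7.14, 7.42 and 8.98 with ursodeoxycholic acid, against 8.65, 9.15 and 8.91 in mock controls. Replicates 1 and 2 lay below all mock arrays and replicate 3 among them, and the difference of −1.05 (SE 0.4) did not pass (limma adjusted p = 0.879). Without replicate 3 it was −1.62 and passed (limma adjusted p = 0.0411). In that fit 20 of all genes passed, against 0 on all arrays. The second CDH11 probe, at a mean of 4.97, read 5.27, 5.27 and 4.9 with ursodeoxycholic acid. It read 5.14, 4.4 and 4.96 in mock controls, a difference of 0.31 in the other direction. The call therefore rests on 1 array left out and 1 of 2 probes.

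CDH20, a type II cadherin, read 3.51, 6.48 and 7.22 with ursodeoxycholic acid, against 7.31, 7.16 and 7.73 in mock controls. The difference of −1.66 (SE 0.75, limma adjusted p = 0.893) was −0.55 without replicate 1, the array with the lowest correlation to the others. CDH4 and ITGA2B were also lowest on that array, at 5.53 and 7.71. Other genes were highest on it, among them CDH3 at 8.64, CDH6 at 6.22, CDH10 at 7.22, CDH16 at 6, ITGB2 at 6.92 and ITGB8 at 6.06. CDH12 differed by −0.67 through replicate 2 at 1.46, and by 0.5 without it.

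On their brightest probes the 8 beta chains all had a mean above mock with ursodeoxycholic acid, by a median of 0.21, and none passed. Of all genes 52.3% lay above mock. The second probe of ITGB4 went the other way, at −0.47, and that of ITGB5 lay at 0.02. ITGB8, which like ITGB6 activates latent TGF-beta with ITGAV, read 6.06, 5.89 and 5.46 with ursodeoxycholic acid, against 5.4, 4.84 and 3.17 in mock controls. Its difference of 1.33 had a 95% interval of −0.03 to 2.7 and was 0.68 without mock control replicate 3 and 0.5 with 50 added before the log. ITGB1 read 9.54, 9.48 and 9.81 with ursodeoxycholic acid, against 9.18, 9.15 and 9.38 in mock controls, a difference of 0.37 (95% interval −0.13 to 0.88). For ITGB8 and ITGB1 the 3 treated arrays lay above all mock arrays. The other 6 beta chains lay 0.04 to 0.35 above mock on their brightest probes, with overlap.

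Of the alpha chains, ITGA3 read 8.3, 8.29 and 8.44 with ursodeoxycholic acid, against 8.23, 7.39 and 6.99 in mock controls. The difference of 0.81 (SE 0.47) had no overlap of the groups and did not pass (limma adjusted p = 0.895). ITGAV differed by 0.52 with overlap, or by 0.16 without mock control replicate 2 and 1.04 without mock control replicate 1. ITGA4 differed by −0.64, or −0.05 without ursodeoxycholic acid replicate 2 and −1.01 without ursodeoxycholic acid replicate 1. CDH1 differed by 0.48 (95% interval −0.57 to 1.53) and CDH17 by −0.8, or −0.29 without ursodeoxycholic acid replicate 1.

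CDH22 was the 1 gene of the 45 that lay above every mock array on 9 of 9 treated arrays, as did 0.36% of all genes. No gene of the 45 lay below every mock array on all 9, where 0.432% of all genes did. CDH3 lay above on 8 of 9 and ITGB6 on 7 of 9, and CDH7 lay below on 7 of 9. The 3 comparisons share the mock arrays, of which replicate 1 held the lowest CDH22 and CDH3 values. Without that array CDH22 differed by 0.92 with glycyrrhizin, 1.64 with silymarin and 0.97 with ursodeoxycholic acid.

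Between the agents, 3 pairs were compared at the same dose of 25 µM. None of the 45 genes passed in any pair, while 0.0504% of all genes passed for glycyrrhizin against silymarin, 0% for glycyrrhizin against ursodeoxycholic acid and 0.0504% for silymarin against ursodeoxycholic acid. At an unadjusted p under 0.05 stood 1 of the 45 for glycyrrhizin against silymarin, 2.22% beside 9.86% of all genes, and 2 for glycyrrhizin against ursodeoxycholic acid, 4.44% beside 5.09%. For silymarin against ursodeoxycholic acid it was 1 gene, 2.22% beside 8.52%. Groups without overlap were seen for 9 of 45 genes between glycyrrhizin and silymarin, where 18.2% of all genes showed this. They were seen for 4 between glycyrrhizin and ursodeoxycholic acid (8.89%, beside 11.6%) and for 6 between silymarin and ursodeoxycholic acid (13.3%, beside 14.7%). ITGAD, CDH20 and CDH11 were the genes with a low p.

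ITGAD read 6.78, 5.64 and 6.11 with glycyrrhizin and 5.24, 4.74 and 5.24 with silymarin, a difference of 1.1 (SE 0.37, 95% interval 0.3 to 1.91) without overlap. Its limma adjusted p was 0.314. CDH8 and CDH22 were lower with glycyrrhizin than with silymarin, by −0.94 and −0.72, without overlap and without passing. CDH22 was at −0.47 without glycyrrhizin replicate 2. CDH23, the cadherin of hair cell tip links, was higher by 0.66, or 0.33 without silymarin replicate 2. CDH20 was higher with glycyrrhizin than with ursodeoxycholic acid by 1.94 (SE 0.75) and higher with silymarin than with ursodeoxycholic acid by 1.84 (SE 0.75). Both values depended in part on ursodeoxycholic acid replicate 1, without which they were 0.83 and 0.73. The CDH20 arrays did not overlap between glycyrrhizin and ursodeoxycholic acid, and did between silymarin and ursodeoxycholic acid.

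CDH11 was higher with glycyrrhizin than with ursodeoxycholic acid by 0.94 (SE 0.4), or 0.59 without ursodeoxycholic acid replicate 1. Without ursodeoxycholic acid replicate 3 it was 1.51 (limma adjusted p = 0.054), and on the second probe it was 0.16. CDH26 and ITGB8 were lower with glycyrrhizin than with ursodeoxycholic acid, by −1.03 and −1.15. With 50 added before the log these were −0.33 and −0.46, and ITGB8 was at −0.75 without glycyrrhizin replicate 2. ITGA3 and ITGB8 were lower with silymarin than with ursodeoxycholic acid, by −0.99 (95% interval −2.02 to 0.04) and −1.35 (−2.71 to 0.02), and CDH8 higher by 0.93. Without silymarin replicate 2 ITGA3 was at −0.49, and without silymarin replicate 3 ITGB8 was at −0.88. For ITGA3, ITGB8 and CDH8 the silymarin and ursodeoxycholic acid arrays did not overlap, and none passed.

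Only 5 genes had 2 probes, and their levels were far apart. The brighter and dimmer probe lay 3.57 log2 units apart for CDH11 and for ITGB5, 2.79 for CDH7, 1.85 for ITGA11 and 1.4 for ITGB4. Both CDH7 probes lay below mock with all 3 agents, in comparisons that share the same mock arrays. The brighter one differed by −0.65 with glycyrrhizin, −0.41 with silymarin and −0.59 with ursodeoxycholic acid (SE 0.36 each). The dimmer one, at a mean of 4.19, differed by −0.51, −0.36 and −0.38 (SE 0.51 each). For ITGA11, a collagen receptor chain, the probes differed in sign with glycyrrhizin, at 0.25 and −0.47, and with ursodeoxycholic acid, at 0.09 and −0.34. For ITGB4 they did so with silymarin, at 0.19 and −0.08, and with ursodeoxycholic acid, at 0.35 and −0.47. The ITGB5 probes gave −0.01 and 0.33 with glycyrrhizin. None of these 10 probes passed when each of the 27561 probes was tested.

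**Figure D5:**
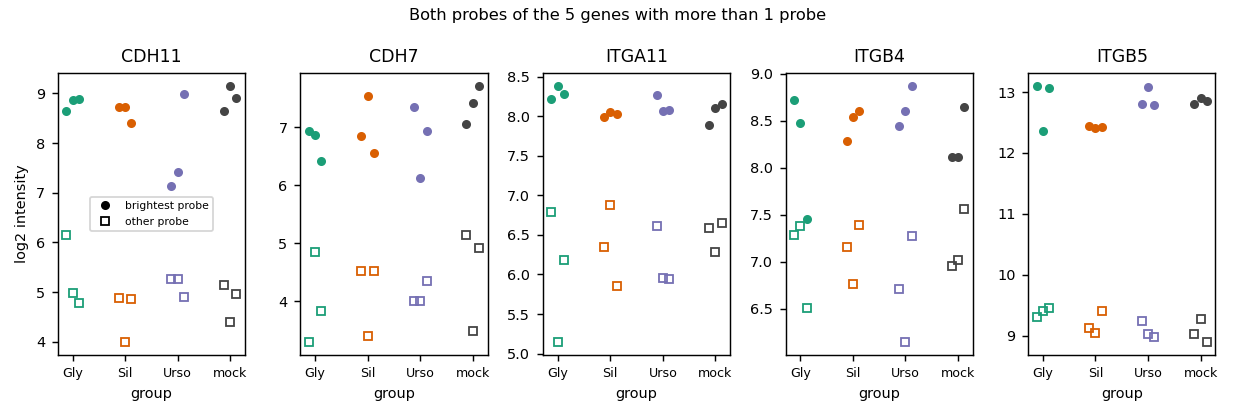
Log2 intensity (y axis) of both probes of the 5 genes with more than 1 probe, on each of the 3 arrays of a group (x axis). Filled circles are the brightest probe and open squares the other; 2 ursodeoxycholic acid arrays lie low in the bright CDH11 probe (7.14 and 7.42) and not in its dim probe.

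The proximal promoters of 27 of the 45 genes were found in the RefSeq table (GRCh38.p14), with 42 entries. Of the 8 genes with a low p against mock control, ITGB6 and CDH20 are the 2 that had an entry and a probe above the median gene, and the 250 bases before their starts are shown as the sequence upstream of these 2 genes. Capitals mark CAGGTG, the E-box core bound by the Snail and ZEB repressors that act on CDH1, or CCAAT, on either strand. ITGB6 lies at chr2:160200273-160200522 on the minus strand and CDH20 at chr18:61333180-61333429 on the plus strand.
ITGB6: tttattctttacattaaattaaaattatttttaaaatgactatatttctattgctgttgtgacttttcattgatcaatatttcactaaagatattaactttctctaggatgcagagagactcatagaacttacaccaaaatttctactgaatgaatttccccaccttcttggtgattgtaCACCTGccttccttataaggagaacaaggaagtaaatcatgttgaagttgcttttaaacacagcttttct
CDH20: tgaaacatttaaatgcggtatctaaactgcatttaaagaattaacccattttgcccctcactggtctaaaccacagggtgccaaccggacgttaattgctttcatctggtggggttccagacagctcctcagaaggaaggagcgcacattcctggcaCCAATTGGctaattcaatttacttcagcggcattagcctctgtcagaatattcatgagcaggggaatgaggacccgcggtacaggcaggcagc

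The ITGB6 stretch holds 1 E-box, read as CACCTG, which begins 70 bases before the start. The CDH20 stretch holds CCAAT and its reverse complement ATTGG overlapping in 1 run that begins 93 bases before the start. CAGGTG was found in 14.3% of the 42 entries of cadherins and integrins and in 17.5% of all 35116 entries of the same length. The shares for CCAAT were 31% and 32%, for the GC box GGGCGG 31% and 42.6% and for TATAAA 7.14% and 10.7%. A match describes the letters and shows no binding.

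The intracellular partners and the ligands were read as lists. Of 15 measured catenins and junction proteins, 23 integrin adaptors and kinases and 28 integrin ligands, none passed with any agent. At an unadjusted p under 0.05, the catenins and junction proteins had 1 gene higher and 2 lower with glycyrrhizin, 1 lower with silymarin and 1 higher with ursodeoxycholic acid. The adaptors had 1 lower with glycyrrhizin, 3 lower with silymarin and 0 with ursodeoxycholic acid. The ligands had 1 higher and 1 lower with glycyrrhizin, 1 higher and 1 lower with silymarin, and 2 higher and 1 lower with ursodeoxycholic acid. Of all genes, 5.71% stood there with glycyrrhizin, 5.24% with silymarin and 5.55% with ursodeoxycholic acid. The median differences of the lists lay between −0.15 and 0.17.

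Among the catenins, CTNNB1, which joins classical cadherin tails to alpha-catenin, averaged 13.13 ± 0.58 (SD, n = 3) with glycyrrhizin and 13.91 ± 0.13 in mock controls, a difference of −0.77 (limma adjusted p = 0.736). The tight junction scaffold TJP1 differed by −0.58 (limma adjusted p = 0.724) and the armadillo protein PKP4 by 0.92 (limma adjusted p = 0.574), both with glycyrrhizin. Of the integrin adaptors, the actin crosslinker FLNA averaged 11.1 ± 0.14 with silymarin and 11.72 ± 0.2 in mock controls, −0.62 (limma adjusted p = 0.836). The focal adhesion kinase PTK2 differed by −0.6 with glycyrrhizin and the kindlin FERMT1 by −0.7 with silymarin, neither past the threshold.

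Of the ligands, tenascin TNC averaged 4.18 ± 0.11 with glycyrrhizin, 4.9 ± 0.56 with silymarin, 4.99 ± 0.46 with ursodeoxycholic acid and 3.22 ± 0.12 in mock controls (SD, n = 3 each). The differences were 0.96, 1.68 and 1.77, with limma adjusted p-values of 0.673, 0.357 and 0.176, all on a dim probe. The laminin chain LAMA1 differed by −0.88, −0.9 and −0.76 with the 3 agents, and osteopontin SPP1 by 0.66 with ursodeoxycholic acid. None of these passed.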

How the data were processed

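The files used here held 1 table of 27561 probes on 12 arrays. Its values are the authors' deposited intensities, linear, from 1 to 65221. Per the submitters' processing notes limma was used; scanner, slide and background step are not stated there, and the values show 1 common distribution on all arrays. Of the probes, 15650 had 1 gene symbol, 0 several and 11911 none; 2355 probes had older symbols updated through RefSeq.

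Intensities were log2-transformed, reduced to the brightest probe of each of 13881 genes and compared through linear models (lmFit, then eBayes, from limma 3.58.1 under R 4.3.3) that hold 4 group means for the 12 arrays (8 residual and 2.71 prior degrees of freedom), for 6 comparisons. Tests were two-sided, intervals are 95% intervals, and the code was tested on simulated data. Precision is limited by the 3 arrays in each group.

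The genes and gene lists were chosen with earlier results of these data known. Named are genes with an unadjusted p under 0.05, the 5 largest differences in each direction against mock control (2 in pairs of agents), the 5 highest and lowest levels, a fixed set of well-known receptors, genes whose probes differ in sign, and the 3 list genes of smallest p. Alternatives were 12 other settings and 12 fits without 1 array. No 2 arrays held identical values.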

Additional observations from a re-analysis of the deposited data

Results flagged for a closer look

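ITGAD is given for a closer look because all 3 glycyrrhizin arrays lay above, and all 3 silymarin arrays below, the 3 mock arrays. Without overlap stood 12.7% of all genes between glycyrrhizin and mock arrays, 10.8% between silymarin and mock arrays and 18.2% between the 2 agents. The share of all genes with the joint pattern was not counted. The ITGAD probe is dim, at a mean of 5.56 beside 6.7 for the median gene. It read 6.78, 5.64 and 6.11 with glycyrrhizin and 5.24, 4.74 and 5.24 with silymarin, against 5.4, 5.34 and 5.32 in mock controls. Against mock control the difference was 0.82 (SE 0.37, limma adjusted p = 0.858) with glycyrrhizin. With silymarin it was −0.28 (SE 0.37, limma adjusted p = 0.959), smaller than its SE, with an interval from −1.09 to 0.52. A lower level with silymarin than in mock controls is therefore not shown. The difference between the 2 agents was 1.1 (SE 0.37) and did not pass over all genes (limma adjusted p = 0.314). Leaving out 1 array at a time gave 0.8 to 1.37, and adding 50 before the log gave 0.56. The mock arrays of this gene spread by an SD of 0.04, beside 0.57 with glycyrrhizin, 0.29 with silymarin and 0.7 with ursodeoxycholic acid.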

How the results depend on the processing

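In the 6 comparisons, 0 of the 45 genes passed under all 12 other settings, among them the replicate block (0 genes), the variance trend with robust estimation, array weights and the compared groups alone. Leaving out the dimmer 50% of probes kept 29 of the 45 genes. Without 1 array the count ran from 0 to 1 for ursodeoxycholic acid against mock control, the 1 gene being CDH11 without replicate 3, and stayed 0 in the other 5 comparisons. Without that replicate, 20 of all genes passed for ursodeoxycholic acid against mock control, against 0 on all arrays. Over all genes the counts against mock control were 17, 4 and 6 with the variance trend, against 1, 0 and 0, and 217 for glycyrrhizin against silymarin, against 7.

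With the dimmest probe of a gene, ITGB5 with silymarin turned to 0.13 and CDH11 with ursodeoxycholic acid to 0.31. Without 1 array, the silymarin difference ran from −0.06 to 0.75 for CDH16 and from −0.07 to 0.76 for CDH4, and the ursodeoxycholic acid difference of CDH12 from −1.41 to 0.5. The second probes of ITGA11, ITGB4 and ITGB5 also gave differences of the other sign, as did that of CDH11 with glycyrrhizin. The cause of these turns was not tested. With 50 added before the log the CDH22 differences were 0.37, 0.69 and 0.38. The next fits were chosen after seeing the data. Without ursodeoxycholic acid replicate 1, 3 genes stood at an unadjusted p under 0.05 against mock control for that agent (CDH22, CDH7 and ITGA4). On all arrays 4 did (CDH11, CDH20, CDH22 and CDH3), so only CDH22 was in both sets. Leaving out silymarin replicate 2 left 1 gene for silymarin, against 2.

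The groups share replicate numbers, and deviations from the group means of same-numbered arrays correlated between −0.189 and 0.153 over 18 pairs, beside −0.231 to 0.272 for other pairs. Only 4 of 12 arrays correlated best with their own number, so the numbers were not taken to pair the arrays. With the replicate block 0 of all genes passed in each comparison.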
